A study of Mus musculus with 12 samples.

Results

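The genes described here are 34 genes of sterol synthesis and of the synthesis of myelin lipids. They were chosen by name as rows of the deposited count tables, and all 34 were found among the 55809 gene symbols that each table lists. By role, 8 make the isoprenoid precursors of sterols (mevalonate steps: Acat2, Hmgcs1, Mvk, Pmvk, Mvd, Idi1, Fdps and Ggps1), 11 carry the chain from squalene to cholesterol (sterol steps: Fdft1, Sqle, Lss, Cyp51, Tm7sf2, Msmo1, Nsdhl, Hsd17b7, Ebp, Sc5d and Dhcr7), and 5 are sterol regulators or carriers (Srebf1, Srebf2, Scap, Insig1 and Stard4). Another 6 make, desaturate or elongate fatty acids (Fasn, Scd1, Scd2, Fads1, Fads2 and Elovl1), and 4 make the galactolipids of myelin (Fa2h, Cers2, Ugt8a and Gal3st1).

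The study measured mRNA by RNA sequencing of cells sorted from mouse hypothalamus, in 4 groups of 3 libraries. TOM positive and TOM negative cells came from the hypothalamus of untreated Mc4r-Cre; Ai14 mice aged 4 weeks, in which cells that use or once used Mc4r make Cre, and Cre turns on a red fluorescent reporter, tdTomato (TOM). The other pair came from a single hypothalamic nucleus, the paraventricular one (PVH), in Otp fl/fl; Ai14 mice. An adeno-associated virus (AAV) had been injected 12 weeks earlier, and these mice were 26 weeks old. All mice of that pair carried the floxed Otp gene and the Ai14 reporter. After AAV-Cre, which deletes Otp in the cells it infects, the sort took TOM positive cells. After AAV-GFP, the control virus, it took GFP positive cells. The labels do not name the promoter of either virus, nor whether replicates are separate animals, so a p-value here reflects the spread among 3 libraries a group that may be technical repeats.

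Cholesterol in the brain is made in place, since lipoproteins do not cross the blood-brain barrier, and oligodendrocytes make much of it while they wrap axons. The pathway is switched on as a unit when the membrane is short of sterol: SCAP carries the transcription factors SREBP1 and SREBP2 out of the endoplasmic reticulum, and INSIG1 holds them back when sterol is plentiful. Myelin is also rich in galactosylceramide and its sulfated form, sulfatide, which oligodendrocytes build from very long and hydroxylated fatty acids.

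The promoters of the genes that the comparisons turn on are shown here, since the sterol genes are known for shared regulatory letters. RefSeq promoters (build GRCm38.p6, from 250 bases before to 50 bases after the start) were matched by symbol for 26 of the 34 genes. Fdps, Fdft1, Sqle, Stard4, Scd1, Scd2, Fads1 and Fa2h were not matched. Each line gives the 250 bases before the start on the gene's own strand, 5′ to 3′. Capitals mark the letters CCAAT, the box bound by NF-Y, or its reverse complement ATTGG, the sterol regulatory element letters TCACNCCAC, and the E-box CACGTG. Hmgcs1 and Idi1 are mevalonate genes that rose in TOM positive cells, Mvd is a mevalonate gene that did not pass, and Cyp51 is a sterol gene that rose. Cers2 and Ugt8a are galactolipid genes, and Fads2 is a fatty acid gene that fell in TOM positive cells. The windows are chr13:119690101-119690350 (plus strand) for Hmgcs1, chr13:8885356-8885605 (plus strand) for Idi1, chr8:122443423-122443672 (minus strand) for Mvd, chr5:4104698-4104947 (minus strand) for Cyp51, chr3:95314940-95315189 (plus strand) for Cers2, chr3:125938653-125938902 (minus strand) for Ugt8a and chr19:10101504-10101753 (minus strand) for Fads2.
Hmgcs1: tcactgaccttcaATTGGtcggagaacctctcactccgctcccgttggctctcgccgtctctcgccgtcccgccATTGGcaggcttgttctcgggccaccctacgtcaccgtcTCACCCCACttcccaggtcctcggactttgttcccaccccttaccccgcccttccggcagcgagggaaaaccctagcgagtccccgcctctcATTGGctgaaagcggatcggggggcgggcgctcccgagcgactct
Idi1: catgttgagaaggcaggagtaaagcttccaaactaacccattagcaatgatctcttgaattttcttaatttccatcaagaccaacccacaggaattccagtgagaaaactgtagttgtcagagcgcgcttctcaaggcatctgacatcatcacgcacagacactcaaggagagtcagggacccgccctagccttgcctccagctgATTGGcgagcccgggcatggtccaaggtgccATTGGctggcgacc
Mvd: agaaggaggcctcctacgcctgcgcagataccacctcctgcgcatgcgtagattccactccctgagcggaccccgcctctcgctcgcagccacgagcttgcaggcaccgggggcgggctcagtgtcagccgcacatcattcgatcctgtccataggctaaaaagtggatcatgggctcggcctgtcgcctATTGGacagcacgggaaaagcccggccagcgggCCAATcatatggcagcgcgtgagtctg
Cyp51: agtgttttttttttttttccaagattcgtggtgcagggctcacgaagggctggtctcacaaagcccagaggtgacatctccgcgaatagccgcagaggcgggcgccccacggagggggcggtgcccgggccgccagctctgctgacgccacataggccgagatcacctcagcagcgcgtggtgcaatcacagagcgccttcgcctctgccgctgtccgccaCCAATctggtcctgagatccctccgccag
Cers2: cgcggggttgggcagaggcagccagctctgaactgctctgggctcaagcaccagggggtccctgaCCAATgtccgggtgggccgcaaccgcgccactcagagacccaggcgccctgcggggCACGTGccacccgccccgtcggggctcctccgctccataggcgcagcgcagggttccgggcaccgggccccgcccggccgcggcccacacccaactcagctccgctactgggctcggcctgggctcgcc
Ugt8a: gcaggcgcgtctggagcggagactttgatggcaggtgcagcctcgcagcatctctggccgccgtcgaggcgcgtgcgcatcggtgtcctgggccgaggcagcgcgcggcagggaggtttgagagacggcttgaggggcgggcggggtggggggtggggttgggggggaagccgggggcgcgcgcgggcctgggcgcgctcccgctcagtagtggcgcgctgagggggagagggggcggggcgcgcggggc
Fads2: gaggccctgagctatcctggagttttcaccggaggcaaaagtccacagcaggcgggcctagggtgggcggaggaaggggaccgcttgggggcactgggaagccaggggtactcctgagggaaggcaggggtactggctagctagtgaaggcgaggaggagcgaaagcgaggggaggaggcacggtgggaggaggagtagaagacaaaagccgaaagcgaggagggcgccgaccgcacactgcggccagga

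CCAAT on either strand was in the promoter of 22 of the 26 matched genes (84.6%), against 41.1% of all 27025 genes in the RefSeq table. By role it was in 6 of 7 mevalonate genes, 9 of 9 sterol genes, 3 of 4 regulators, 2 of 3 fatty acid genes and 2 of 3 galactolipid genes. Hmgcs1 had 3 copies in the window shown, Idi1 and Mvd had 2 each, and Ugt8a and Fads2 had 0. The letters TCACNCCAC were in 1 of the 26 genes, Hmgcs1, where they begin at position -137 counted with the start as 0, against 1.44% of all genes. A stricter form of those letters, with 10 fixed bases, was in 0 of the 26, against 0.0999% of all genes. CACGTG was in 6 of the 26, Cers2, Dhcr7, Hsd17b7, Insig1, Sc5d and Scap, against 8.09%. These counts describe letters in the windows, and a link between the letters and the levels below was not tested.

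Library totals ran from 13506018 to 27827853 counts, and without molecular identifiers PCR copies count as reads. The AAV-Cre libraries held 14747 to 16988 genes with a count, against 20778 to 23902 in the AAV-GFP libraries. Counts of the targeted gene Otp were 12, 9 and 10 in AAV-Cre libraries, below the 91, 102 and 38 in AAV-GFP libraries. Counts of Mc4r were 63, 0 and 0 in TOM positive replicates, with 0 in all TOM negative ones, so 2 of the 3 libraries sorted for the Mc4r reporter held no Mc4r read. Markers of oligodendrocytes, 14 genes such as Mag, took 9.27% to 10.3% of the counts in TOM positive and 1.91% to 2.49% in TOM negative libraries. The 10 neuronal markers took 0.0522% ± 0.00793 and 0.00864% ± 0.000572 (SD, n = 3 each). In the AAV groups oligodendrocyte markers took 5.43% to 6.55% after AAV-Cre and 1.59% to 4.83% after AAV-GFP, and neuronal markers 0.242% ± 0.0221 and 0.172% ± 0.0511. Oligodendrocyte markers thus took a larger share than neuronal markers in all 12 libraries, and none of the 14 was at 0 in any library. In mixed sorted cells such as these, more cells of a type and more mRNA per cell cannot be told apart.

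The lipid genes were compared first between TOM positive and TOM negative cells. Levels are CPM, a gene's counts relative to the library total, scaled within each comparison's 6 libraries. Of the 34 genes, all entered the edgeR quasi-likelihood test, and 11 rose, 3 fell and 20 did not pass at an adjusted p of 0.05. Over all 15228 genes tested, 10.4% passed as higher and 13.4% as lower, 23.9% in all. The median log2 fold change was 0.49 over the 34 genes and -0.02 over all genes. For 21 of the 34 genes no TOM positive library lay within the TOM negative range, against 46.4% of all genes. These were 17 higher and 4 lower, against 20.8% and 25.6% of all genes. Without scaling factors the log2 fold changes of all genes moved up by a median of 0.26, and 2204 genes were higher and 1532 lower, in place of 1589 and 2046. In that setting 15 of the 34 lipid genes were higher and 2 lower.

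**Figure D1:**
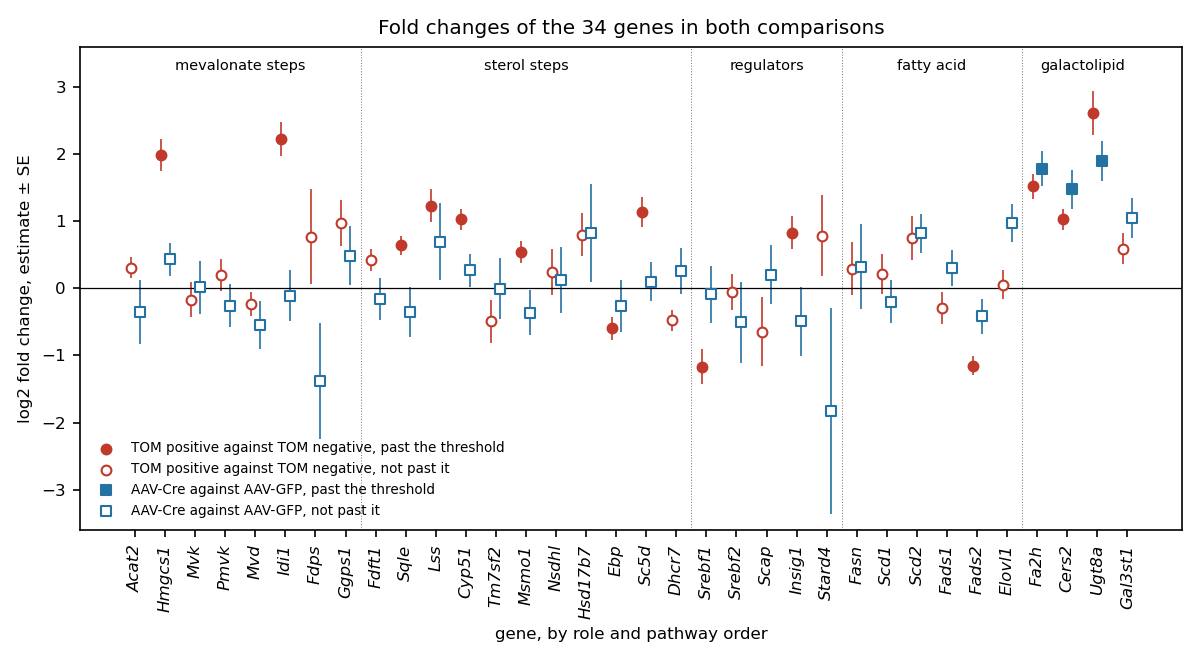
Log2 fold change with its SE (vertical axis) of each of the 34 genes (horizontal axis, by role and pathway order) in the TOM comparison (circles) and the AAV comparison (squares), filled where the edgeR adjusted p was under 0.05. Galactolipid genes lie above 0 in both comparisons, while Hmgcs1 and Idi1 lie near 2 in the TOM comparison only, at 1.99 and 2.23 against 0.44 and -0.11.

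Of the 8 mevalonate genes, 2 rose in TOM positive cells and none fell. Hmgcs1 (chromosome 13, 120151915 to 120169796, plus strand in the vM30 annotation), which encodes the cytosolic enzyme that makes HMG-CoA, had 1145, 645 and 823 CPM in TOM positive replicates 1, 2 and 3 and 185, 238 and 235 CPM in TOM negative ones. Every TOM positive library was above every TOM negative one, and the log2 fold change was 1.99 ± 0.24, or 3.97-fold (edgeR adjusted p = 0.00177). Idi1 (chromosome 13, 8935537 to 8942487, plus strand), the isomerase that makes the reactive isoprenoid unit, had 81.7, 65.9 and 78.5 CPM against 12.6, 16.3 and 19.4 CPM. Its groups lay far apart, with a log2 fold change of 2.23 ± 0.25, or 4.68-fold (edgeR adjusted p = 0.00139). Its promoter carries 2 CCAAT boxes close to the start, both shown above in capitals, and 22 of the 26 matched genes hold that box.

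The other 6 mevalonate genes did not pass, although the groups did not overlap for Acat2, Fdps and Ggps1. Ggps1, which makes the geranylgeranyl lipid of protein prenylation, had 86.0, 50.7 and 65.1 CPM against 23.2, 29.9 and 49.5 CPM (edgeR adjusted p = 0.0814). It passed in 3 of 9 other settings: DESeq2, voom and library totals alone. Ggps1 shares 257 exon bases with Arid4b on the other strand, which cannot be separated if the TOM libraries were counted without strand. Acat2, the first step, had 142, 141 and 143 CPM against 130, 113 and 101 CPM (edgeR adjusted p = 0.211), and its reads may be shared with near-identical copies. Fdps was very low, with 4.31, 5.11 and 5.46 CPM against 4.23, 3.20 and 1.28 CPM (edgeR adjusted p = 0.484). Reads of Fdps may likewise have been lost to near-identical copies, since reads that map to several places were not counted where the counting is recorded. Mvk, Pmvk and Mvd, the kinases and the decarboxylase between Hmgcs1 and Idi1, had overlapping groups and log2 fold changes of -0.17, 0.20 and -0.23. The pathway's members thus did not move alike: between genes that differed 3.97-fold and 4.68-fold stood 3 steps within 0.23 of 0 on the log2 scale.

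Of the 11 sterol genes, 5 rose, 1 fell and 5 did not pass. Sqle (chromosome 15, 59186926 to 59203041, plus strand), the squalene epoxidase that opens the oxygen-dependent steps, had 401, 351 and 355 CPM against 232, 213 and 265 CPM, 1.56-fold (edgeR adjusted p = 0.0192). Lss (chromosome 10, 76367422 to 76392972, plus strand), which closes the rings to lanosterol, had 55.5, 72.5 and 55.5 CPM against 27.8, 20.3 and 29.8 CPM, 2.35-fold (edgeR adjusted p = 0.0125). Cyp51 (chromosome 5, 4131145 to 4154746, minus strand), the lanosterol demethylase, had 387, 358 and 410 CPM against 195, 162 and 210 CPM. In all of these the groups were apart, and Cyp51 rose by 1.03 ± 0.15 on the log2 scale (edgeR adjusted p = 0.00428). Cyp51 shares 166 exon bases with Akap9 on the other strand, and the genes cannot be separated there if the TOM libraries were counted without strand, as the AAV libraries were.

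Msmo1 (chromosome 8, 65171173 to 65186826, minus strand), a methyl oxidase, had 1127, 1034 and 1043 CPM against 891, 670 and 641 CPM, 1.46-fold (edgeR adjusted p = 0.0484). Sc5d (chromosome 9, 42162891 to 42175552, minus strand), a late desaturase, had 370, 257 and 339 CPM against 180, 112 and 147 CPM, 2.20-fold (edgeR adjusted p = 0.0118). The member that fell was Ebp (chromosome X, 8051568 to 8059751, minus strand), the sterol isomerase, with 87.2, 87.2 and 94.9 CPM against 163, 120 and 124 CPM and -0.60 ± 0.18 as its log2 fold change (edgeR adjusted p = 0.0479). Msmo1 and Ebp lie just under the threshold. When each library was left out in turn, Msmo1 lost its call in 5 of 6 fits and Ebp in all 6 (edgeR adjusted p up to 0.175 and 0.127). Lss and Sc5d lost theirs when TOM negative replicate 2 was dropped (edgeR adjusted p of 0.0602 and 0.0538), and Sqle without that library, TOM positive replicate 1 or TOM positive replicate 3 (edgeR adjusted p up to 0.0889). Without TOM negative replicate 2, 1 sterol gene rose in place of 5, and that was Cyp51.

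Among sterol genes that did not pass, the groups did not overlap for Fdft1, Hsd17b7 and Dhcr7. Fdft1, squalene synthase, had 282, 319 and 271 CPM against 256, 192 and 200 CPM (edgeR adjusted p = 0.103). It shares 774 exon bases with the abundant gene Ctsb on the other strand, so its counts are uncertain in the same way. Hsd17b7, a sterol ketone reductase, had 64.4, 58.0 and 66.3 CPM against 21.1, 38.1 and 49.0 CPM (edgeR adjusted p = 0.114). Dhcr7, which acts at the end of one branch of the pathway, lay the other way, with 141, 122 and 112 CPM against 163, 171 and 188 CPM (edgeR adjusted p = 0.0678), and it passed with DESeq2 and with voom. Tm7sf2, a sterol reductase, and Nsdhl, a dehydrogenase that helps remove methyl groups, overlapped between groups, with log2 fold changes of -0.49 ± 0.32 and 0.25 ± 0.34, and Tm7sf2 shares 532 exon bases with Vps51 on the same strand.

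**Figure D2:**
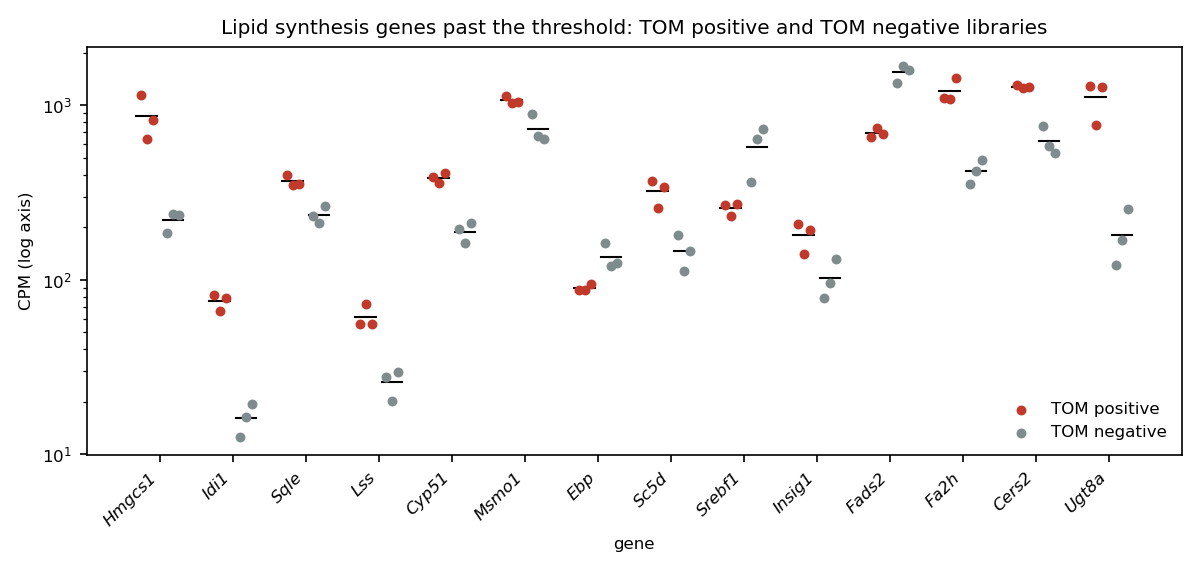
CPM on a log axis (vertical) of the 14 lipid genes past the threshold (horizontal) in each TOM positive (red) and TOM negative (grey) library, with black lines at the means of 3. Points of the 2 groups do not overlap for any of the 14, and Ebp, Srebf1 and Fads2 are the 3 whose TOM positive points lie below.

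The regulators moved in both directions. Srebf1 (chromosome 11, 60089915 to 60113407, minus strand), which encodes SREBP1, fell, with 268, 234 and 273 CPM in TOM positive against 364, 640 and 732 CPM in TOM negative libraries, or -1.17 ± 0.26 in log2 (edgeR adjusted p = 0.017). TOM negative replicate 1 was the lowest of its group and still above all TOM positive libraries. Dropping TOM positive replicate 1, or TOM negative replicate 2, ended the call (edgeR adjusted p up to 0.0727). Insig1 (chromosome 5, 28276361 to 28283660, plus strand), itself a target of SREBP2, rose, with 210, 140 and 193 CPM against 78.5, 96.5 and 131 CPM, 1.78-fold (edgeR adjusted p = 0.048). That call was lost in 4 of 6 fits with 1 library left out, those without TOM positive replicate 1 or 3 or TOM negative replicate 1 or 2 (edgeR adjusted p up to 0.163). Srebf2, which encodes SREBP2, the isoform that drives the sterol genes, had 139, 91.3 and 101 CPM against 79.0, 139 and 125 CPM, with overlapping groups and a log2 fold change of -0.05 ± 0.27. Scap, with 39.4, 35.7 and 81.6 CPM against 31.5, 103 and 111 CPM, and Stard4, a sterol carrier under 15 CPM in every TOM library, also overlapped and did not pass.

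Of the 6 fatty acid genes none rose and 1 fell, with 0 higher and 1 lower at an unadjusted edgeR p under 0.05, where all genes gave 16.9% and 19.5%. With voom 1 gene was higher. Fads2 (chromosome 19, 10040129 to 10079110, minus strand), the desaturase that opens the synthesis of long polyunsaturated fatty acids, had 662, 737 and 685 CPM in TOM positive and 1341, 1691 and 1598 CPM in TOM negative libraries. Each TOM positive library was under each TOM negative one, and the log2 fold change was -1.15 ± 0.14, or 0.45-fold (edgeR adjusted p = 0.00185). Fads1, its neighbour in the genome and the next desaturase in the same pathway, had 280, 264 and 271 CPM against 219, 370 and 409 CPM (edgeR adjusted p = 0.421). Scd2, the main stearoyl-CoA desaturase of the brain, had 3728, 2483 and 3432 CPM against 1070, 1967 and 2672 CPM, with 1 TOM negative library inside the TOM positive range (edgeR adjusted p = 0.141). Scd1 and Scd2 are similar enough that reads shared between them may have been lost. Fasn, the fatty acid synthase, Scd1 and Elovl1 overlapped between groups, with log2 fold changes of 0.29, 0.22 and 0.06. In Fasn, Scd1, Scd2, Fads1 and Fads2, TOM negative replicate 1 was the lowest of its group.

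The galactolipid genes had the highest median log2 fold change of the 5 roles, 1.28, against 0.54 for the mevalonate and 0.54 for the sterol genes. Of the 4, 3 rose, none fell, and the groups did not overlap for any. Ugt8a (chromosome 3, 125658920 to 125732268, minus strand), the transferase that adds galactose to ceramide, had 1296, 770 and 1270 CPM against 122, 169 and 254 CPM. Its log2 fold change of 2.61 ± 0.33, or 6.13-fold, was the largest of the 34 genes (edgeR adjusted p = 0.00208). Fa2h (chromosome 8, 112071767 to 112120456, minus strand), which hydroxylates the fatty acid of these lipids, had 1099, 1089 and 1430 CPM against 354, 420 and 486 CPM, 2.87-fold (edgeR adjusted p = 0.00176). Cers2 (chromosome 3, 95222102 to 95230910, plus strand), the ceramide synthase for very long chains, had 1305, 1252 and 1267 CPM against 757, 583 and 532 CPM, 2.04-fold (edgeR adjusted p = 0.00512). Gal3st1, which adds the sulfate of sulfatide, had 252, 222 and 352 CPM against 218, 186 and 145 CPM and did not pass (edgeR adjusted p = 0.11). Of the 14 lipid genes that passed here, 7 did so whichever library was dropped (6 fits) and in all 9 other settings: Hmgcs1, Idi1, Cyp51, Fads2, Fa2h, Cers2 and Ugt8a.

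Lipid genes outside the 34 were looked at in 4 lists. Of 13 further fatty acid genes 3 rose and none fell, with a median log2 fold change of 0.31. Elovl6, which elongates the products of FASN, had 193, 178 and 196 CPM against 21.8, 20.2 and 23.1 CPM, a rise of 3.12 ± 0.16 in log2 (edgeR adjusted p = 9.35e-05). Elovl7, another elongase, rose by 2.14 ± 0.18 (edgeR adjusted p = 0.000464). Of 4 plasmalogen genes, for the ether lipids that myelin also holds, 1 rose, Far1, by 2.47 ± 0.34 (edgeR adjusted p = 0.00312). Of 16 further sphingolipid genes 1 rose and 3 fell (median -0.38), among them Cers1, the ceramide synthase for shorter chains typical of neurons, at -1.26 ± 0.18 (edgeR adjusted p = 0.00321), and Asah1, a lysosomal ceramidase, at -0.80 ± 0.18 (edgeR adjusted p = 0.0195). Of 14 tested genes of sterol export, storage, turnover and sensing none rose and 1 fell, Npc2, a lysosomal cholesterol carrier, at -0.85 ± 0.21 (edgeR adjusted p = 0.0247). Cers2 and Cers1, which make ceramides of different chain length, therefore passed in opposite directions.

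Markers of other cell types moved with these groups. Of the 14 oligodendrocyte markers 13 rose and none fell (median log2 fold change 1.31), and of 8 precursor markers 4 rose. Of 9 microglial markers all 9 fell (median -5.51), and their share was 0.0608% ± 0.0274 against 2.15% ± 0.11. Of 10 neuronal markers 5 rose and none fell, with a median of 2.74, above that of the oligodendrocyte markers. Of 8 astrocyte markers 2 fell (median -0.18), of 7 endothelial markers 3 fell (median -2.90) and of 5 ependymal markers 2 fell (median -1.93). All 7 endothelial markers had 0 counts in TOM positive replicate 2. The part of these cell types in the lipid results was not tested.

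Summed, the 34 genes made up 1.47% ± 0.16 of a TOM positive library and 0.841% ± 0.129 of a TOM negative one (SD, n = 3 each). The mevalonate share was 0.148% ± 0.0332 against 0.0537% ± 0.00249. Hmgcs1 alone held a mean of 871 of the 1353 summed CPM of these 8 genes in TOM positive libraries. In TOM negative libraries it held 219 of 588. The sterol share was 0.313% ± 0.0147 against 0.181% ± 0.0208, and the galactolipid share 0.422% ± 0.0511 against 0.129% ± 0.0064. Each of these shares was higher in every TOM positive library than in any TOM negative one, as was the share of the oligodendrocyte markers. The other roles overlapped between groups. The fatty acid share was 0.521% ± 0.0678 against 0.396% ± 0.105, and the regulator share 0.0667% ± 0.00968 against 0.0809% ± 0.0283.

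**Figure D3:**
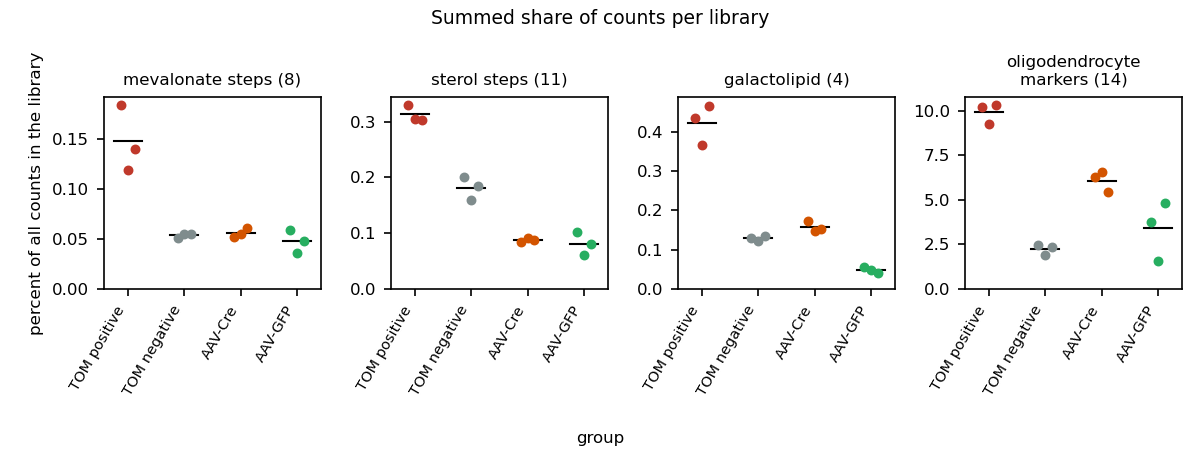
Percent of all counts in each library (vertical axis) taken by the 8 mevalonate, 11 sterol and 4 galactolipid genes and the 14 oligodendrocyte markers, by group (horizontal axis), with black lines at the means of 3. Each panel has its own scale from 0, and the TOM positive points lie above the TOM negative ones in all 4 panels. In the AAV groups the galactolipid and oligodendrocyte marker points separate while the mevalonate and sterol points overlap. In summed CPM, which is scaled, the oligodendrocyte markers of the AAV groups overlapped, with 50426 in AAV-Cre replicate 3 and 54663 in AAV-GFP replicate 3.

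The next comparison asked what differed after AAV-Cre, which removes Otp, against AAV-GFP. Of the 34 lipid genes 3 rose, none fell and 31 did not pass, and the 3 were galactolipid genes. Over all 15408 genes tested, 0.63% passed as higher and 1.97% as lower, 2.6% in all. The median log2 fold change was 0.06 over the 34 genes and -0.16 over all genes. For 9 of the 34 the groups lay apart, against 28.5% of all genes, with 7 higher and 2 lower after AAV-Cre, against 9.85% and 18.6%. At an unadjusted edgeR p under 0.05, 6 of the 34 were higher and 0 lower, against 6.7% and 12.1% of all genes. With library totals alone, 127 genes passed as higher and 241 as lower in place of 97 and 303, with a median shift of 0.16 on the log2 scale, and the same number of lipid genes, 3, was called.

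Fa2h had 373, 347 and 380 CPM in AAV-Cre replicates 1, 2 and 3 and 114, 123 and 83.5 CPM in AAV-GFP ones, 1.78 ± 0.26 in log2, or 3.44-fold (edgeR adjusted p = 0.0258). Ugt8a had 374, 248 and 397 CPM against 89.5, 106 and 76.8 CPM, 1.90 ± 0.29, or 3.74-fold (edgeR adjusted p = 0.027). Cers2 had 778, 680 and 515 CPM against 284, 183 and 241 CPM, 1.48 ± 0.29, or 2.79-fold (edgeR adjusted p = 0.0497). In each of these genes the lowest AAV-Cre library stood well above the highest AAV-GFP one. Gal3st1 had 115, 175 and 123 CPM against 60.3, 84.2 and 55.1 CPM, also without overlap, and did not pass (edgeR adjusted p = 0.111), though it did with DESeq2 and when all 12 libraries shared 1 fit. The calls rest on all 6 libraries: Fa2h and Cers2 passed in none of the 6 fits with 1 library left out and Ugt8a in 1, that without AAV-Cre replicate 2, with edgeR adjusted p up to 0.135, 0.162 and 0.135. In those fits the log2 fold changes stayed between 1.72 and 1.90 for Fa2h, 1.31 and 1.69 for Cers2 and 1.77 and 2.08 for Ugt8a. Cers2 also did not pass when tested against a 1.5-fold change. Over all genes, 296, 122 and 283 passed without AAV-Cre replicate 1, 2 or 3, and 0, 2 and 0 without AAV-GFP replicate 1, 2 or 3.

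None of the 8 mevalonate genes and none of the 11 sterol genes passed with edgeR, at an unadjusted p under 0.05 either (0 higher, 0 lower), nor with DESeq2 or voom. Hmgcs1 had 209, 218 and 272 CPM against 192, 167 and 158 CPM, groups that just do not overlap, at 0.44 ± 0.25 in log2 (edgeR adjusted p = 0.393). Idi1 had 32.0, 16.9 and 29.7 CPM against 26.7, 24 and 34 CPM (edgeR adjusted p = 0.925). Fdps, which joins isoprenoid units into farnesyl diphosphate, was very low, with 0.374, 0.475 and 0.756 CPM against 1.55, 1.52 and 1.13 CPM (edgeR adjusted p = 0.45). Among sterol genes the groups overlapped in all 11, with log2 fold changes from -0.37 for Msmo1 to 0.83 for Hsd17b7. Cyp51, with 96.1, 116 and 113 CPM against 92.8, 77.3 and 99.4 CPM, had a log2 fold change of 0.27 ± 0.25, and Sqle, with 134, 108 and 85.5 CPM against 204, 128 and 84.3 CPM, one of -0.35 ± 0.37. Lss spread widely within both groups, from 25.1 to 109 CPM after AAV-Cre and from 29.1 to 70.9 CPM after AAV-GFP. A p above the threshold does not show that these levels were alike.

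None of the 5 regulators passed (0 at an unadjusted edgeR p under 0.05, and 0 with DESeq2 and voom). In Srebf1, Srebf2 and Fasn, AAV-GFP replicate 2 was the highest library, though in Fasn AAV-Cre replicate 1 came near it. Srebf1 had 245, 246 and 272 CPM against 154, 462 and 194 CPM, Srebf2 had 175, 81.5 and 112 CPM against 58.7, 329 and 134 CPM, and Fasn had 244, 106 and 166 CPM against 50.1, 280 and 82.2 CPM. The same library held the smallest share of oligodendrocyte markers of its group, 1.59%, against 3.77% and 4.83% in AAV-GFP replicates 1 and 3. Insig1 had 91.8, 25.9 and 32.7 CPM against 51.6, 92.8 and 67.1 CPM. Stard4 had 0 counts in AAV-Cre replicate 3 and was under 11 CPM in the others.

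None of the 6 fatty acid genes passed with edgeR, DESeq2 or voom, while 2 were higher at an unadjusted edgeR p under 0.05. These were Elovl1, which extends saturated fatty acids to very long chains, and Scd2. Elovl1 had 151, 177 and 151 CPM against 92.4, 58.3 and 93.8 CPM, a difference of 0.97 ± 0.28 in log2 (edgeR adjusted p = 0.116), and passed when all 12 libraries shared 1 fit. Scd2 had 3539, 2211 and 3506 CPM against 1558, 1795 and 1889 CPM, 0.82 ± 0.29 (edgeR adjusted p = 0.182). Fads2 lay the other way, with 728, 516 and 733 CPM against 765, 942 and 933 CPM (edgeR adjusted p = 0.452). Fads1 had 1020, 662 and 947 CPM against 684, 792 and 656 CPM, with overlapping groups.

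**Figure D4:**
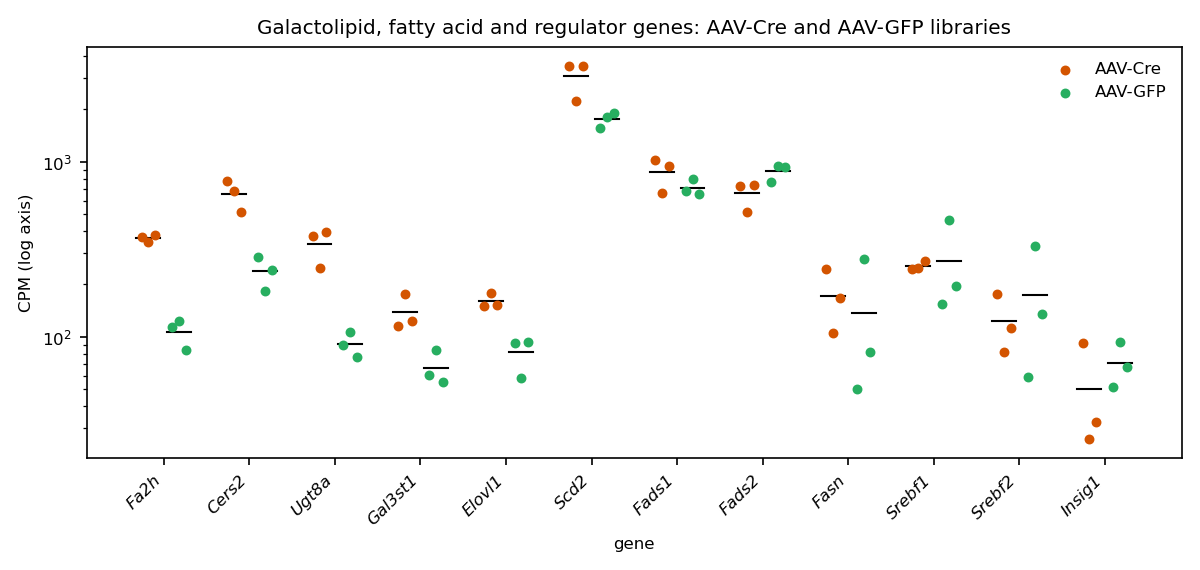
CPM on a log axis (vertical) of 12 galactolipid, fatty acid and regulator genes (horizontal) in each AAV-Cre (orange) and AAV-GFP (green) library, with black lines at the means of 3. The 4 galactolipid genes, Elovl1 and Scd2 have every AAV-Cre point above every AAV-GFP point, and in Fasn, Srebf1 and Srebf2 the highest AAV-GFP point is replicate 2.

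Of the lipid lists outside the 34, 1 of 13 fatty acid genes rose after AAV-Cre, Elovl7, by 1.5 ± 0.3 (edgeR adjusted p = 0.0497). None of 16 sphingolipid genes (3 higher and 4 lower at an unadjusted edgeR p under 0.05), 4 plasmalogen genes (0 and 1) and 14 sterol handling genes (2 and 0) passed. Of the 14 oligodendrocyte markers 3 rose, Mag, Mal and Ermn, and none fell, with a median log2 fold change of 1.42. The list did not move as 1: 11 markers lay above 0 and 3 below it, from -0.89 to 2.07. Mag, an adhesion protein of myelin, had 2090, 2232 and 1978 CPM against 667, 444 and 641 CPM (edgeR adjusted p = 0.0258). Of 8 precursor markers 1 rose, of 9 microglial markers 1 rose, of 5 ependymal markers 4 fell and of 6 tested endothelial markers 1 fell (median -3.70), while none of 10 neuronal and 8 astrocyte markers passed (1 and 0 at an unadjusted edgeR p under 0.05). Microglial markers took 0.495% to 0.915% of the counts after AAV-Cre and 0.232% to 0.341% after AAV-GFP, and ependymal markers 0.00326% to 0.0047% against 0.076% to 0.155%. Endothelial markers took 0.00229% to 0.00386% against 0.014% to 0.0173%, and Emcn and Cdh5 had 0 counts in each AAV-Cre library. The part of these cell types in the galactolipid result was not tested.

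The galactolipid genes took 0.158% ± 0.0135 of the counts after AAV-Cre and 0.0475% ± 0.00734 after AAV-GFP. The mevalonate share was 0.056% ± 0.00451 against 0.0477% ± 0.0118 and the sterol share 0.0879% ± 0.0032 against 0.0808% ± 0.0207, and in both the groups overlapped. The regulator share, 0.0517% ± 0.0103 against 0.0541% ± 0.0333, overlapped too. The fatty acid share was 0.548% ± 0.133 against 0.36% ± 0.0227, without overlap. In summed CPM, which is scaled, the fatty acid genes overlapped. Together the 34 genes took 0.902% ± 0.147 against 0.59% ± 0.0351, without overlap.

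Whether the lipid genes differed between the 2 comparisons was tested as the difference of log2 fold changes in 1 fit of all 12 libraries. Of the 34 genes, 2 passed, both with a higher fold change in the TOM comparison, against 3.17% of 17332 genes in that direction, 4.55% in the other and 7.72% in either. Hmgcs1 differed by 1.46 ± 0.33 (edgeR adjusted p = 0.0206) and Idi1 by 2.25 ± 0.45 (edgeR adjusted p = 0.00971). Of the 4 galactolipid genes none passed this test, and a missed threshold does not show that they moved alike. The comparisons differ in age, dissected region, genotype, virus and sort, which cannot be told apart.

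Levels between genes were compared per kilobase of the exon length in the file headers. In TOM positive cells the order began with Scd2 at 588 ± 119 CPM per kb, Fa2h at 401 ± 64.6, Cers2 at 347 ± 7.52, Ugt8a at 245 ± 65.3, Fads2 at 211 ± 11.7 and Hmgcs1 at 190 ± 55.2 (SD, n = 3). Fa2h and Cers2 lay within their spread of each other, as did Ugt8a, Fads2 and Hmgcs1. In TOM negative cells Fads2, at 468 ± 55 CPM per kb, and Scd2, at 348 ± 147, were the highest and lay within the spread of Scd2, while Ugt8a stood at 40 ± 14.8 and Hmgcs1 at 47.8 ± 6.56. In both AAV groups the 4 highest were Scd2, Fads2, Fads1 and Cers2. In AAV-Cre libraries Scd2 was at 565 ± 139 CPM per kb, and Fads2 at 200 ± 37.6, Fads1 at 182 ± 39.2 and Cers2 at 179 ± 36.1 lay within their spread of each other. In AAV-GFP libraries the levels were 320 ± 31.2, 267 ± 30.3, 148 ± 14.8 and 64.2 ± 13.8. Fdps and Stard4 were the lowest in all 4 groups, at 1.53 CPM per kb or less.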

How the data were processed

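Cells of 4 groups of 3 libraries were sorted into Trizol and sequenced with a SMART-Seq kit for low input, per the labels' protocols. The authors deposited raw counts, whole numbers for each gene symbol with no normalization. FastQC, Trim Galore, STAR and featureCounts were used, per the submitters' processing notes. The authors counted read pairs of the AAV libraries with featureCounts 2.0.1 on GENCODE vM30, without strand and without reads that map to several places, per the file headers. For the TOM libraries no source used here gives the counting settings. The submitters' notes name mm10, while vM30 belongs to a later assembly, so gene positions are those of vM30 as deposited and promoters are those of GRCm38.p6, and none was converted. The 6 single AAV files equalled their columns in the joint table.

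The 6 libraries of a comparison were fitted alone, in R 4.3.3 with edgeR 4.0.16 (TMM scaling, filterByExpr with a minimum count of 10, quasi-likelihood test, two-sided, Benjamini-Hochberg adjustment over all genes tested, threshold 0.05). CPM used TMM-scaled totals, and the SE came from the quasi-likelihood F statistic. Alternatives were RLE size factors, no scaling factors, no count filter, a replicate block, DESeq2 1.42.0, voom with quality weights (limma 3.58.1), 1 fit of 12 libraries, a test against a 1.5-fold change, mitochondrially encoded genes removed, and each library left out. The test of the difference between the 2 comparisons was added after seeing the data. The members and all gene lists were chosen with earlier results of these data known. All 34 genes are named, those that passed or whose groups did not overlap with every library's value, and of each other list at most the 2 genes with the smallest p in a comparison; Ermn (1 of 3 markers that rose) and Cdh5 (at 0 counts) are named after their values were seen. No replicate pair agreed within sampling noise (chi-square per degree of freedom of 44.6 or more). The steps were tested on simulated data. At the libraries' own spread, a simulated log2 fold change of 1 was recovered for 11 of 68 genes in the TOM fit. In the AAV fit it was recovered for 0 of 68. Changes of 2 were recovered for 52 of 66 genes in the TOM fit and 23 of 66 in the AAV fit. A missed threshold, most of all in the AAV comparison, therefore says little about changes of that size. A planned ratio of lipid genes to oligodendrocyte markers is not reported here.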

Additional observations from a re-analysis of the deposited data

How the results depend on the processing

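Of the lipid genes described here, none that passed changed sign under any setting run. In the TOM comparison 3635 genes passed, with 1987 under a replicate block, 5521 with DESeq2, 2177 against a 1.5-fold change and 1511 to 3547 with 1 library left out. Of the lipid genes 11 were higher, with 7 under a replicate block, 7 in 1 fit of 12 libraries and 6 to 11 with 1 library left out (6 without TOM negative replicate 2). The 3 lower became 1 against a 1.5-fold change and 1 to 3 with 1 library left out (1 when TOM positive replicate 1, or TOM negative replicate 2, was dropped). In the AAV comparison 400 genes passed, with 712 without a count filter, 0 under a replicate block, 1884 with DESeq2, 698 in 1 fit of 12 libraries, 245 against a 1.5-fold change and 0 to 296 with 1 library left out. The 3 lipid genes that were higher became 0 under a replicate block, 4 with DESeq2, 5 in 1 fit of 12 libraries, 2 against a 1.5-fold change and 0 to 1 with 1 library left out. The causes were not tested. Replicate numbers do not pair the libraries: deviations of same-numbered libraries correlated at -0.0542 to 0.0402 in the TOM and -0.0919 to -0.0682 in the AAV comparison. The stricter sterol regulatory element letters were in 0 genes in place of 1.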
